A study of Mus musculus with 78 samples.

Results

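A group of 8 imprinted genes of distal mouse chromosome 7 was followed through the degradation of TRIM28 in mouse embryonic stem cells (mESCs): Igf2, H19, Cdkn1c, Kcnq1ot1, Phlda2, Slc22a18, Ascl2 and Tssc4. They were picked by name, as 8 of the 54446 gene IDs in the RNA-seq tables, and all 8 are also among the 54435 gene IDs of the table of newly made RNA. TRIM28-FKBP mESCs are V6.5 cells with a degradation tag (mRuby2-P2A-FKBP) knocked into the start of Trim28, and the line is 1 picked clone. In these cells dTAG-13 at 500 nM removes the TRIM28 protein, and DMSO is its vehicle. The messenger RNA time course held 3 libraries per group: DMSO, or dTAG-13 for 2 h, 6 h, 24 h or 96 h. TT-SLAM-seq, which reads RNA labelled with 4-thiouridine during a short pulse, also had 3 libraries per group, with DMSO or with 2 h, 6 h or 24 h of dTAG-13.

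Further RNA-seq came from other cells. Parental V6.5 mESCs, untagged and untreated, and neural progenitor cells (NPCs) in DMSO had 3 messenger RNA libraries each, and the labels give the NPCs as V6.5 without naming the tag. The shERV line carries inducible short hairpins against families of endogenous retroviruses (ERVs) and had 3 total RNA libraries per group, which were given DMSO, dTAG-13 alone (24 h) or doxycycline (Dox) and dTAG-13. For its RNA-seq of this knockdown the paper describes hairpins induced 24 h ahead of the degradation. The labels mention Dox before treatment for all 3 shERV groups, whereas the titles and the methods place it in 1 of them, and the groups are named here by their titles. All mESCs were expanded on irradiated fibroblast feeders, which the methods describe as removed before RNA-seq. The labels of the tagged line mention that removal, and those of the parental and shERV cells describe plating on feeders. Chromatin was profiled by ChIP-seq with DMSO or 24 h of dTAG-13, in 3 libraries per group for H3K9me3 and for H3K27Ac and 2 per group for RNA polymerase II (RNAPII) and MED23. V6.5 cells come from a cross between inbred strains, but none of the tables separates the maternal from the paternal copy. The figure legends of the study call its RNA replicates biological, but the labels do not say that libraries of a group came from separate cultures, so p-values measure the spread between libraries, which may be technical.

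An imprinted gene is expressed mainly from the copy of 1 parent, because a control region near it carries DNA methylation on only 1 of the parental copies. At the Igf2-H19 domain the control region upstream of H19 is methylated on the paternal copy. There Igf2 is expressed from the paternal and H19 from the maternal copy, and binding of CTCF to the unmethylated copy keeps enhancers away from Igf2. In the neighbouring Kcnq1ot1 domain the promoter of the long RNA Kcnq1ot1 is the control region, methylated on the maternal copy, and Kcnq1ot1 RNA from the paternal copy is known to silence Cdkn1c, Phlda2, Slc22a18, Ascl2 and Tssc4 on that copy. TRIM28 is recruited by zinc finger proteins such as ZFP57, which reads a methylated TGCCGC hexamer, and is known to keep H3K9me3 and DNA methylation on the methylated copy of such regions.

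The sequences below are those of the pair of control regions, shown because the H3K9me3 peaks described further on lie over them. Both were read from the mm10 genome on the strand of the gene, 5′ to 3′. The window 2 to 4 kb upstream of the H19 start (chr7:142580143-142582143) overlaps no annotated gene and holds 5 TGCCGC hexamers on either strand, and 12.9% of 52789 upstream windows of the same length hold 1 or more. As many as 5 occur in 0.0739% of those windows. The piece chr7:142581771-142582070 has 3 of them, in capitals (GCGGCA is the same hexamer on the other strand), and 54.7% GC:
H19 control region: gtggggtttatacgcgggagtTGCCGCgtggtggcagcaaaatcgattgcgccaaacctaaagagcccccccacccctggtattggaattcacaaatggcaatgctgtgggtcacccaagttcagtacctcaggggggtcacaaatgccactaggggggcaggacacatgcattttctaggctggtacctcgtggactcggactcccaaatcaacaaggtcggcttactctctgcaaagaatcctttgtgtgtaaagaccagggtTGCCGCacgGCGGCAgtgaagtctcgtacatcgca
The same window holds 5 matches to GGNGGCAG, a core of the CTCF motif, where 44.8% of windows hold 1 or more and 0.294% hold as many. Each is given with its flanks and with the core in capitals, and in the site with GGCGGCAG the core overlaps a hexamer on the other strand:
chr7:142582022-142582053, 3898 bases upstream of H19: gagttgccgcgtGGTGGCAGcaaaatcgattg
chr7:142581897-142581928, 3773 bases upstream of H19: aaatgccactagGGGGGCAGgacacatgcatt
chr7:142581778-142581809, 3654 bases upstream of H19: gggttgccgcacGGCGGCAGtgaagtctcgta
chr7:142580752-142580783, 2628 bases upstream of H19: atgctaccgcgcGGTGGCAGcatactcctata
chr7:142580297-142580328, 2173 bases upstream of H19: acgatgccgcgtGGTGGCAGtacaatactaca
The start of Kcnq1ot1 lies in an intron of Kcnq1, on the opposite strand. Within 2 kb either side of it there are 3 hexamers, as many as in 6.29% of such windows, and no GGNGGCAG. The piece chr7:143295558-143295857, inside the transcript, has all 3 in capitals, with 59% GC and 31 CpG dinucleotides:
Kcnq1ot1 start: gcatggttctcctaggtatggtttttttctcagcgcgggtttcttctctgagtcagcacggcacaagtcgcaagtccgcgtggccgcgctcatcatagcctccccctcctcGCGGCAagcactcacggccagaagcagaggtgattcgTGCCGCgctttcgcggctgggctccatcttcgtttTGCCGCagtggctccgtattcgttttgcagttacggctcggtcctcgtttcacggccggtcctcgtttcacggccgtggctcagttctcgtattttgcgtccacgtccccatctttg
A match is a description of these letters and not of a bound protein.

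In steady-state RNA, Igf2 and H19 were the members that rose most over the time course. Igf2 encodes a secreted growth factor of the fetus (insulin-like growth factor 2) and H19 is a long non-coding RNA that hosts the microRNA miR-675. Levels are given in TPM, which scale reads to transcript length and to a fixed total per library. Genes were tested with limma on log2(TPM + 0.5) over all genes that reached 1 TPM in 3 or more of the fitted libraries, and a gene was called at an adjusted p below 0.05 together with a change of more than 2-fold. Fitted changes understate those of genes near 0.5 TPM. The 2 h, 6 h, 24 h and 96 h comparisons share the same 3 DMSO libraries.

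H19 (chr7:142575529-142578143, minus strand) was at 6.85, 8.05 and 6.99 TPM in the DMSO libraries. It was at 33.6, 29.1 and 33.5 TPM after 24 h and at 105, 108 and 92.4 TPM after 96 h. The 3 groups did not overlap, and the levels at 2 h (5.32 to 6.28 TPM) and 6 h (6.12 to 8.43 TPM) stayed in the range of a few TPM. H19 rose by a log2 change of 2.06 ± 0.11 (SE) at 24 h, from 7.30 ± 0.656 to 32.1 ± 2.58 TPM (SD, n = 3; limma adjusted p = 1.4e-09), and by 3.71 ± 0.11 at 96 h, to 102 ± 8.00 TPM (limma adjusted p = 3.3e-13). It was also 1.65 ± 0.11 higher (log2) at 96 h than at 24 h.

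Igf2 (chr7:142650766-142666816, minus strand) starts 88.7 kb from H19. Its level was 122, 126 and 125 TPM in DMSO, and 111 to 137 TPM at 2 h and 6 h. At 24 h the libraries held 185, 158 and 168 TPM, above all DMSO libraries, and at 96 h they held 955, 962 and 854 TPM. The 24 h difference of 0.45 ± 0.07 (log2) had an adjusted p of 7.8e-05 by limma but was under 2-fold. Igf2 rose at 96 h by 2.88 ± 0.07, from 124 ± 2.19 to 924 ± 60.3 TPM (limma adjusted p = 7.9e-14). H19 was thus called at 24 h and Igf2 at 96 h, and whether their changes differ from each other was not tested.

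Reads over exons of Igf2 may be listed under another gene that shares them. Gm49394 (chr7:142650769-142669942, minus strand, annotated as protein-coding) has 5 exons, of which the last 3 are Igf2 exons, and 75.9% of its 4738 exon bases are shared. Its own start lies 3126 bases upstream of that of Igf2. It was not on any list and was chosen after its values were seen. Gm49394 was listed at 8.92, 5.53 and 0.542 TPM in DMSO. It was at 58.1, 51.9 and 47.6 TPM at 24 h and at 934, 921 and 900 TPM at 96 h. No 24 h or 96 h library overlapped the DMSO libraries, and the DMSO libraries themselves spread widely. The log2 change was 3.76 ± 0.64 at 24 h (limma adjusted p = 1.3e-04) and 7.88 ± 0.64 at 96 h (limma adjusted p = 3.3e-08). StringTie divides reads on shared exons between Igf2 and Gm49394, so the split between these genes is uncertain. Since TPM divide reads by transcript length, their sum depends on the split to some degree as well. Summed, they held 129 ± 3.22 TPM in DMSO, 223 ± 17.6 TPM at 24 h and 1840 ± 76.0 TPM at 96 h, and Gm49394 made up 0.431 to 6.81% of the sum in DMSO, 22.1 to 24.7% at 24 h and 48.9 to 51.3% at 96 h. With the sum in place of Igf2, an alternative added after the data were seen, the change was 0.78 ± 0.05 at 24 h, still under 2-fold, and 3.83 ± 0.05 at 96 h. Igf2os, which lies antisense to Igf2, held 2.31 to 3.01 TPM in DMSO. At 24 h it was lower, at 2.12, 1.9 and 1.96 TPM (log2 change -0.31 ± 0.11, limma adjusted p = 0.0218, under 2-fold). At 96 h it held 13.3 to 14.3 TPM (log2 change 2.22 ± 0.11, limma adjusted p = 1.1e-10).

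**Figure D1:**
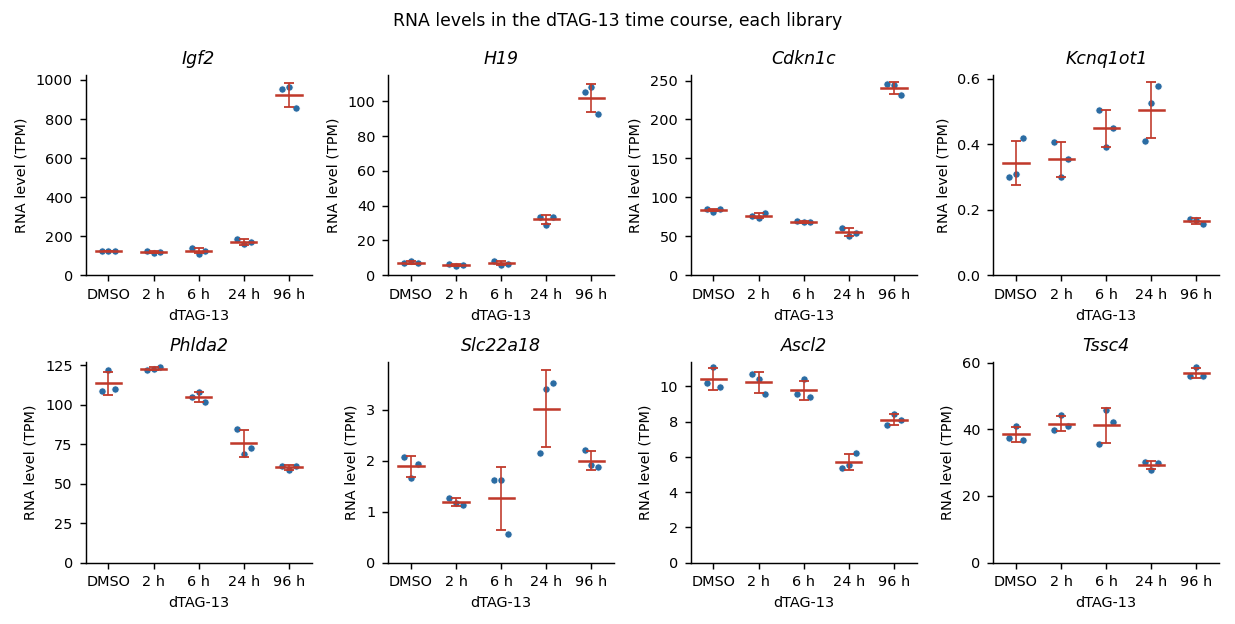
RNA levels of the 8 genes in TPM (linear axis from 0) for DMSO and 4 durations of dTAG-13 treatment (2 h to 96 h). Points are libraries, and red lines are the mean and SD of 3. H19 stands at 29.1 TPM or more from 24 h on, Igf2 and Cdkn1c are highest at 96 h, and Phlda2 and Ascl2 are below their DMSO levels at 24 h and 96 h.

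Of the genes in the Kcnq1ot1 domain, Cdkn1c was below its DMSO level at 24 h and rose at 96 h. Cdkn1c (chr7:143458339-143461050, minus strand) encodes p57, an inhibitor of cyclin-dependent kinases that restrains growth. It was at 84.7, 81.8 and 85 TPM in DMSO, at 67.8 to 69.3 TPM at 6 h, and at 60.8, 50.8 and 54.3 TPM at 24 h. At 96 h it held 245, 244 and 231 TPM. All 6 h and 24 h libraries lay below and all 96 h libraries above the DMSO range. The difference at 6 h was -0.29 ± 0.05 (log2; limma adjusted p = 0.00124) and at 24 h -0.60 ± 0.05 (limma adjusted p = 2.8e-07), both under 2-fold. Cdkn1c rose by 1.51 ± 0.05 at 96 h, from 83.9 ± 1.76 to 240 ± 7.55 TPM (limma adjusted p = 3.3e-12), and by 2.11 ± 0.05 between 24 h and 96 h. Gm44732 lies antisense to it.

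Phlda2 and Ascl2 did not share that rise at 96 h. Phlda2 (chr7:143501545-143503150, minus strand), a small pleckstrin homology protein that limits placental growth, was at 109, 122 and 110 TPM in DMSO. It was at 84.9, 69.1 and 72.5 TPM at 24 h and at 61.1, 58.4 and 61.5 TPM at 96 h. The 3 groups did not overlap, and the differences from DMSO were -0.59 ± 0.06 (log2; limma adjusted p = 1.3e-06) and -0.91 ± 0.06 (limma adjusted p = 4.7e-09), under 2-fold in both. With each library centred on its median the 96 h difference was -1.18 and was called. Ascl2 (chr7:142966829-142969264, minus strand), a basic helix-loop-helix factor needed for the trophoblast, was at 10.2, 11.1 and 9.96 TPM in DMSO. Its libraries held 5.35, 5.56 and 6.22 TPM at 24 h and 7.81, 8.43 and 8.07 TPM at 96 h. Ascl2 was lowest at 24 h, with a difference of -0.82 ± 0.07 from DMSO (limma adjusted p = 2.0e-07), and 0.47 ± 0.07 higher at 96 h than at 24 h (limma adjusted p = 2.8e-05), both under 2-fold. Centring gave -1.11 at 24 h, which was called.

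None of the remaining members was called. Tssc4 (chr7:143069249-143071093, plus strand) overlaps Trpm5, a gene on the opposite strand, and was at 37.5, 41.1 and 36.9 TPM in DMSO, 27.9 to 30.1 TPM at 24 h and 56.1 to 58.7 TPM at 96 h. These ranges did not overlap, and the differences were -0.39 ± 0.08 at 24 h (limma adjusted p = 4.2e-04) and 0.56 ± 0.08 at 96 h (limma adjusted p = 8.8e-06). Slc22a18 (chr7:143473736-143499334, plus strand), an organic cation transporter, was low throughout, at 1.67 to 2.07 TPM in DMSO, 2.15 to 3.52 TPM at 24 h and 1.87 to 2.21 TPM at 96 h. Its 24 h difference was 0.54 ± 0.23 (limma adjusted p = 0.0536). Kcnq1ot1 (chr7:143203458-143296549, minus strand), which is kept in the nucleus, was below 1 TPM in all messenger RNA libraries and was not tested there. It was at 0.299, 0.309 and 0.42 TPM in DMSO, 0.411 to 0.579 TPM at 24 h and 0.156 to 0.171 TPM at 96 h, and the 96 h libraries all lay below the DMSO range.

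Counted together, 7 of the 8 members were tested in the time course. At 2 h and at 6 h limma called 0 of 7, with 3 and 2 of them at an unadjusted p below 0.05, where 28.7% and 43.3% of all genes had one. Over all 17922 genes tested, 0.251% were called higher and 0.123% lower at 2 h. The shares at 6 h were 0.776% higher with 0.190% lower. At 24 h 1 of 7 was called higher (H19) and 0 lower, beside 10.1% higher and 2.01% lower over all genes. An adjusted p below 0.05 alone was common at 24 h, in 6 of 7 members and in 67.9% of all genes. At 96 h 3 of 7 were called higher (H19, Igf2 and Cdkn1c) and 0 lower, beside 20.3% higher and 12.4% lower. Between 24 h and 96 h the same 3 genes were called higher, beside 13.7% higher and 16.5% lower. The median change of the 7 was -0.39 at 24 h and 0.56 at 96 h (log2), against 0.13 and 0.05 over all genes tested. Centring each library on its median moved the median of all genes at 24 h from 0.13 to -0.16, and the called genes from 1819 higher and 360 lower to 886 higher and 919 lower, so the size of the small 24 h differences depends on the scaling.

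Markers of other cells moved at 96 h too. The counts below stand beside 20.3% of all genes called higher and 12.4% lower at 96 h, and 2.01% lower at 24 h. Of 8 pluripotency genes all 8 were called lower at 96 h, and their summed level went from between 3470 and 3804 TPM in DMSO to between 312 and 351 TPM, after 2270 to 2594 TPM at 24 h. Of 9 tested fibroblast markers (10 listed) 8 were called higher at 96 h, with summed levels of 27.4 to 28.4 TPM in DMSO, 36.4 to 37.9 TPM at 24 h and 307 to 331 TPM at 96 h. Trophoblast markers summed to 53.1 to 57.1 TPM in DMSO, 41.3 to 42.4 TPM at 24 h, where Plac1 (-1.23, log2) and Cdx2 (-1.07) were called lower, and 245 to 260 TPM at 96 h (4 of 7 higher). Ascl2 and Phlda2 were below their DMSO levels at that same 24 h point. Endoderm markers summed to 28.5 to 34.5 TPM in DMSO and 83.5 to 88.1 TPM at 96 h, where 4 of 7 were higher and 2 lower (Lama1, -1.35, and Amn, -1.21), with Afp, Apoa1, Hnf4a and Ttr under 0.1 TPM at 96 h. Mesoderm markers summed to 6.79 to 9.4 TPM in DMSO and 16.1 to 19.1 TPM at 96 h. The part of such cells in the rise of Igf2, H19 and Cdkn1c and in the differences of Ascl2 and Phlda2 was not tested, and in these bulk samples fewer cells of a type and less RNA per cell cannot be told apart. The first 24 h library was the shallowest, at 0.28 of the median depth of the RNA-seq libraries, and H19 was called at 24 h without any single library.

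Newly made RNA was measured by TT-SLAM-seq in FPKM, reads scaled to length and depth. With each gene's full span, introns included, taken as its length, 98.4 to 99.4% of the low values of a library lay within 0.1 of a whole read, so reads could be recovered for each member, on scaling totals of 6.48 to 24.2 M reads per library. Igf2 had 41 to 395 reads per library and Kcnq1ot1 689 to 2869. H19 had only 0 to 6 reads, Ascl2 1 to 24, Phlda2 12 to 46 and Cdkn1c 10 to 47. Differences in the last 4 genes were therefore hard to detect at this depth.

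Igf2 was the only tested member called with more new RNA at 24 h. It was at 0.35, 0.237 and 0.262 FPKM in DMSO, between 0.266 and 0.391 FPKM at 2 h and 6 h, and at 1.01, 1.12 and 1.08 FPKM at 24 h. All 24 h libraries lay above all others. The fitted log2 change was 1.01 ± 0.09 (limma adjusted p = 5.7e-05), on log2(FPKM + 0.5), where the ratio of group means, 3.78, is larger. The call sits on the 2-fold limit: the change was 0.69 with a pseudocount of 1, 0.76 with centred libraries and 0.96 to 0.99 without the second or the third DMSO library, and none of these was called. Igf2 also reached the filter of 0.5 FPKM only in its 3 libraries of 24 h, the group where it is high. Neither its p-value nor its call is therefore support for a rise. With any of those 3 libraries left out it was not tested, and it is not listed among the genes of a filter at a mean of 5 FPKM.

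The new RNA over Igf2 also reached upstream of it at 24 h. Reads were counted for every gene they overlap, so the reads of Gm49394 beyond those of Igf2 lie in the 3126 bases before the Igf2 start. There were 1, 0 and 0 such reads in DMSO, 1, 0 and 2 at 2 h, and 0, 1 and 0 at 6 h. At 24 h there were 42, 42 and 22, beside 395, 370 and 112 reads over Igf2 itself. The library with 22 reads had the smallest scaling total. This stretch was picked after the values were seen, and the counts carry no test.

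None of the other members was called in new RNA. Tssc4 was at 4.31, 4.09 and 4.09 FPKM in DMSO and at 2.51, 1.9 and 2.88 FPKM at 6 h, with no overlap, a difference of -0.69 ± 0.11 (limma adjusted p = 0.0105) that was under 2-fold. At 24 h it was again at 3.72 to 4.1 FPKM. Ascl2 was at 0.676, 0.456 and 0.216 FPKM in DMSO and at 0.152, 0.1 and 0.0634 FPKM at 24 h with no overlap. The ratio of means was 0.234, and the fitted change of -0.62 ± 0.19 (limma adjusted p = 0.0250) was under 2-fold with the pseudocount of 0.5 and -1.35, and called, with one of 0.1. Ascl2 reached the filter of 0.5 FPKM only in libraries of DMSO and 2 h, the groups where it is high. It had 1 to 9 reads per library at 24 h, so neither the p-value nor that call is support for a fall. For Kcnq1ot1, with the most reads, the 24 h libraries held 1.27, 1.35 and 1.45 FPKM against 1.01, 1 and 1.3 FPKM in DMSO, an overlap, and the interval of the log2 difference ran from -0.03 to 0.45. For Cdkn1c it ran from -0.09 to 0.46 and for Phlda2 from -0.24 to 0.58, so neither a rise nor a fall was shown. H19 and Slc22a18 were too low to be tested, H19 at 0 to 0.101 FPKM in DMSO and 0.0788 to 0.118 FPKM at 24 h, and Slc22a18 at 0.0308 to 0.0803 FPKM and 0.11 to 0.133 FPKM. All 24 h libraries of Slc22a18 lay above its DMSO libraries, with a ratio of means of 2.43 that carries no test.

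Of the 6 members tested in TT-SLAM-seq, limma called 0 at 2 h and 0 at 6 h, with 1 and 2 at an unadjusted p below 0.05, where 21.2% and 26.5% of all genes had one. Over all 13357 genes tested 0.127% were called higher and 0.0973% lower at 2 h. The shares at 6 h were 0.374% higher with 0.195% lower. At 24 h 2.49% of all genes were higher and 0.906% lower, and 1 of 6 members was called higher. That member, Igf2, passed the filter only through the group where it is high, so this count is no support.

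**Figure D2:**
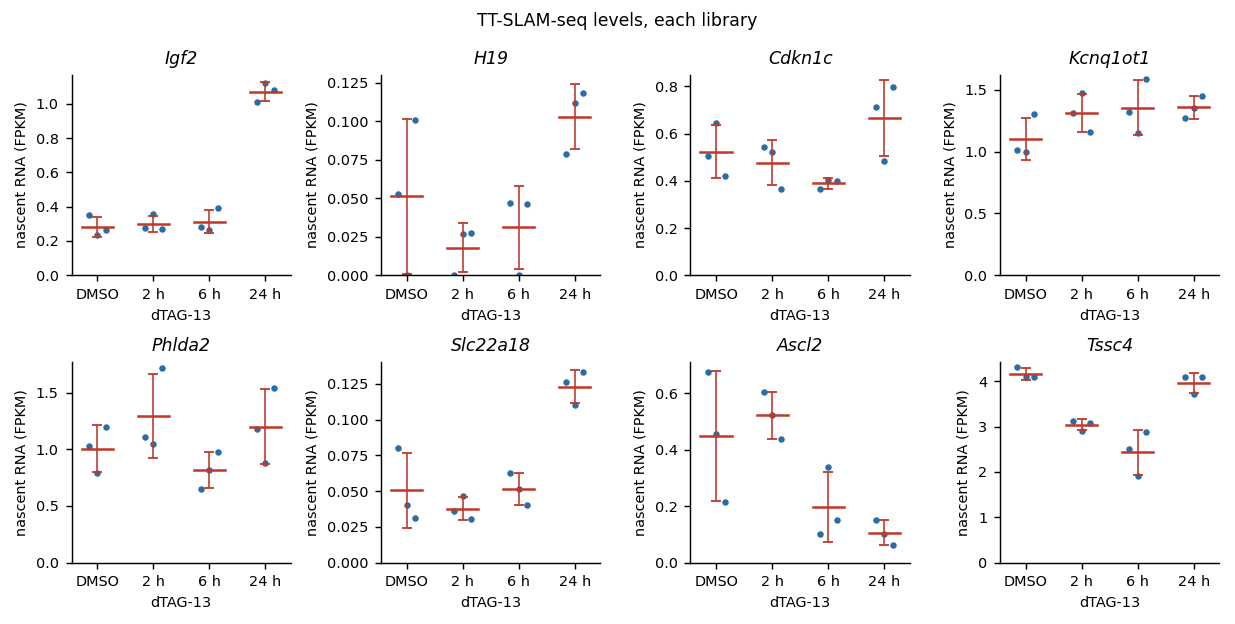
New RNA of the 8 genes in FPKM (linear axis from 0, TT-SLAM-seq) for DMSO and 3 durations of dTAG-13 treatment (2 h to 24 h). Points are libraries, and red lines are the mean and SD of 3. Igf2 at 24 h lies above 1 FPKM, apart from all other libraries, and Tssc4 is lowest at 6 h, while H19 and Slc22a18 stay at or below 0.133 FPKM.

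In the shERV line dTAG-13 was given without or with Dox, which induces hairpins against ERVs. No RNA-seq group had Dox alone or a control hairpin, so Dox and the hairpins cannot be told apart here. H19 was higher with dTAG-13 alone than in DMSO, and low in the group given Dox and dTAG-13. It was at 7.81, 7.24 and 7.97 TPM in DMSO and at 22.8, 21.4 and 22.9 TPM with dTAG-13. With Dox and dTAG-13 it was at 9.53, 8.86 and 6.86 TPM. The dTAG-13 libraries lay apart from both other groups, and the latter overlapped each other. H19 rose by 1.48 ± 0.10 (log2; limma adjusted p = 3.2e-07) with dTAG-13. With Dox and dTAG-13 it was lower by 1.37 on the log2 scale than with dTAG-13 alone (SE 0.10; limma adjusted p = 7.1e-07). Both comparisons use the same dTAG-13 libraries, so a value particular to those 3 would enter both.

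Gm49394, the transcript that shares exons with Igf2, had the same order. It was at 2.69, 5.38 and 7.71 TPM in DMSO, at 160, 164 and 167 TPM with dTAG-13, and at 7.13, 5.77 and 8.47 TPM with Dox and dTAG-13. The fitted changes were 4.93 ± 0.25 (limma adjusted p = 5.3e-08) and -4.44 ± 0.25 (limma adjusted p = 1.2e-07). Igf2 itself was at 377, 400 and 408 TPM in DMSO, 429, 416 and 457 TPM with dTAG-13, and 413, 409 and 414 TPM with Dox and dTAG-13, differences of 0.13 ± 0.05 and -0.07 ± 0.05. Centring turned the first of these to -0.03, so no direction is given for Igf2 here. The sum of both genes was 400 ± 18.7, 597 ± 24.2 and 419 ± 4.18 TPM in the 3 groups, and Gm49394 made up 0.709 to 1.85%, 26.8 to 28.3% and 1.39 to 2.00% of it.

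Phlda2 had the opposite order. It was at 58.5, 70.2 and 65.2 TPM in DMSO, at 35.6, 36.7 and 30.6 TPM with dTAG-13, and at 60.5, 58.1 and 67.7 TPM with Dox and dTAG-13. The dTAG-13 libraries were below all others, with differences of -0.90 ± 0.08 (limma adjusted p = 4.1e-06) and 0.85 ± 0.08 (limma adjusted p = 8.8e-06), both under 2-fold, and the first was -1.07 and called with centred libraries. Cdkn1c was at 68.7 to 75.4 TPM, 81.7 to 86.2 TPM and 74.1 to 75.6 TPM, with differences of 0.22 ± 0.04 and -0.16 ± 0.04. Kcnq1ot1, more abundant in total than in messenger RNA, was at 1.26 to 1.64 TPM, 1.17 to 1.36 TPM and 1.75 to 1.8 TPM, and the last difference, 0.34 ± 0.12, had an adjusted p of 0.0364 by limma. Ascl2 (4.1 to 5.85 TPM), Slc22a18 (0.821 to 1.56 TPM) and Tssc4 (26.4 to 33.8 TPM over the 9 libraries) had no adjusted p below 0.05.

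All 8 members were tested here. With dTAG-13 1 of 8 was called higher (H19) and 0 lower, beside 2.38% higher and 1.44% lower of 16166 genes. With Dox and dTAG-13, against dTAG-13 alone, 1 of 8 was called lower (H19) and 0 higher, beside 1.49% higher and 1.96% lower. Fibroblast markers summed to 116 to 124 TPM in DMSO, 115 to 128 TPM with dTAG-13 and 126 to 134 TPM with Dox and dTAG-13, with 9 of 10 markers at 1 TPM or more. Pluripotency markers summed to 1913 to 2241 TPM, 904 to 943 TPM and 2171 to 2204 TPM. They thus had the order of Phlda2 and the opposite order to H19 and Gm49394, and their part in these results was not tested.

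**Figure D3:**
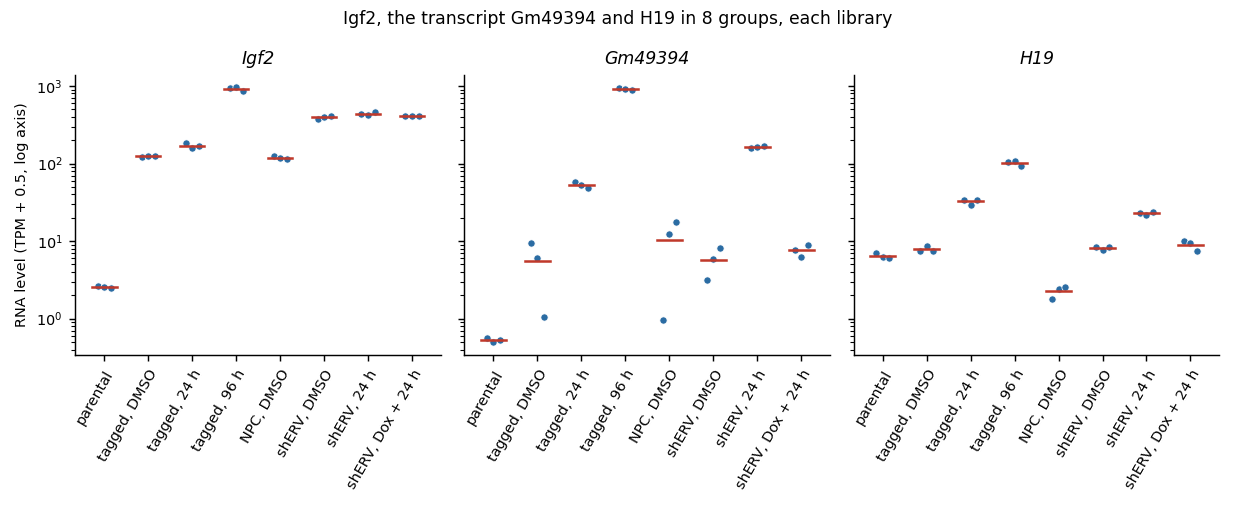
RNA levels (TPM + 0.5, log axis) of Igf2, Gm49394 and H19 in 8 groups of 3 libraries. Points are libraries and red lines are group means. Igf2 is near 2 TPM in parental cells and above 100 TPM in all others, and Gm49394 and H19 are high after dTAG-13 and low with Dox and dTAG-13 in the shERV line.

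The effect of 24 h of dTAG-13 in the shERV line was also set against that in the time course, as an interaction in 1 limma fit. No member was called in 8 tested, although 7 had an unadjusted p below 0.05, as had 57.3% of all genes, beside 2.11% called higher and 6.61% lower over 17653 genes. The shERV libraries are total RNA and the others messenger RNA, so line and library type cannot be told apart in this comparison.

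Without dTAG-13 the tagged clone, in DMSO, differed from the untreated parental line by more than 2-fold in 3 of the tested genes, and Igf2 differed most. An adjusted p below 0.05 was reached by 6 of 7, beside 66% of all genes. Parental cells held 2.16, 2.04 and 1.95 TPM of Igf2 against 122, 126 and 125 TPM in the tagged line in DMSO. Igf2 was lower in parental cells by a log2 change of -5.62 ± 0.04 (limma adjusted p = 7.1e-12). Igf2os was at 0.0627 to 0.117 TPM in parental cells and Gm49394 at 0 to 0.0586 TPM. Cdkn1c was at 28.7, 30.5 and 27.9 TPM in parental cells and had a fitted change of -1.51 ± 0.04 (log2; limma adjusted p = 3.4e-09). Ascl2 was at 2.69, 3.92 and 3.41 TPM there, with a fitted change of -1.52 ± 0.16 (log2; limma adjusted p = 3.1e-05). H19 did not follow Igf2. It was at 6.56, 5.72 and 5.53 TPM in parental cells, all below the DMSO libraries, with a difference of -0.28 ± 0.14 (limma adjusted p = 0.0995).

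The other members were not called or not tested. Phlda2 was at 164 to 172 TPM and Slc22a18 at 2.84 to 3.19 TPM in parental cells, differences of 0.56 ± 0.16 and 0.54 ± 0.09, with no overlap and under 2-fold. Tssc4 was at 32.3 to 35.2 TPM in parental cells (-0.17 ± 0.05, limma adjusted p = 0.0111, but 0.02 with centred libraries). Kcnq1ot1, below the filter and not tested, was at 0.0894 to 0.114 TPM in parental cells and 0.299 to 0.42 TPM in the tagged line, with no overlap and a ratio of means of 0.291. In all 3 of 7 tested members were called lower and 0 higher in parental cells, beside 2.25% higher and 9.15% lower of 17458 genes. Treatment (none against DMSO) and the picking of a tagged clone differ together between these groups, the labels describe their culture differently, and these cannot be told apart. Markers of several cell types moved as well. Fibroblast markers summed to 107 to 110 TPM in parental cells and 27.4 to 28.4 TPM in the tagged line (5 of 9 higher), and pluripotency markers to 5475 to 5573 TPM and 3470 to 3804 TPM (4 of 8 higher). Trophoblast markers summed to 34.1 to 35.8 TPM in parental cells and 53.1 to 57.1 TPM in the tagged line (5 of 7 lower, median log2 change -2.55), and 2 of 2 tested mesoderm markers were lower. Only 2 trophoblast markers and 0 mesoderm markers reached 1 TPM in all 3 parental libraries. Most of those tested thus passed the filter through other groups of the fit, so these counts of lower markers are no support. The part of all these marker sets in the differences of Igf2, Cdkn1c and Ascl2 was not tested. Trim28 RNA was at 1418, 1389 and 1387 TPM against 622, 622 and 626 TPM. Trim28 RNA does not check the degradation, which acts on the protein.

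In NPCs the Kcnq1ot1 domain was split. The mESCs set against them here are the tagged clone in DMSO. The labels of the NPCs do not name the tag, so cell type and clone may differ together and cannot be told apart. The NPCs had all 7 neural progenitor markers at 1 TPM or more (3447 to 3513 TPM summed, 66.6 to 67.7 TPM in mESCs), and Pou5f1 and Zfp42 were under 0.1 TPM. Phlda2 was at 0.337, 0.47 and 0.0739 TPM in NPCs against 109 to 122 TPM in mESCs. Ascl2 was at 0.0399, 0 and 0.242 TPM and Slc22a18 at 0, 0.0308 and 0 TPM. These 3 genes were near 0 in NPCs, with fitted log2 changes of -7.20 ± 0.16, -4.22 ± 0.16 and -2.23 ± 0.09 (limma adjusted p = 7.6e-11, 4.2e-09 and 6.1e-09), which at such levels depend on the pseudocount. All 3 passed the filter only through the mESC groups, where they are high, so these p-values are no support. Cdkn1c, from the same domain, was at 217, 208 and 202 TPM in NPCs and was higher by 1.31 ± 0.04 (limma adjusted p = 5.7e-10), a change of 0.91 and not called with centred libraries. Tssc4 was at 60.5, 61.9 and 63.9 TPM (0.68 ± 0.05, under 2-fold), and Kcnq1ot1 was at 0.323 to 0.361 TPM, within its range in mESCs.

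At the Igf2-H19 domain, H19 was at 1.31, 1.93 and 2.08 TPM in NPCs, lower by a log2 change of -1.79 ± 0.14 (limma adjusted p = 7.0e-07). Igf2 was at 123, 118 and 113 TPM in NPCs, which overlaps the 122 to 126 TPM of the tagged mESCs, and the interval of the log2 difference ran from -0.18 to 0.01. Parental mESCs held 1.95 to 2.16 TPM of Igf2, so this overlap is with the tagged clone only. In NPCs 1 of 7 tested members was called higher and 4 lower, beside 25.9% higher and 20.7% lower of all genes. Phlda2, Slc22a18 and Ascl2 reached 1 TPM in no NPC library. They passed the filter only through the groups where they are high, so neither their p-values nor their part of this count is support. The parental and NPC comparisons share the 3 DMSO libraries of the tagged line with the time course.

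**Figure D4:**
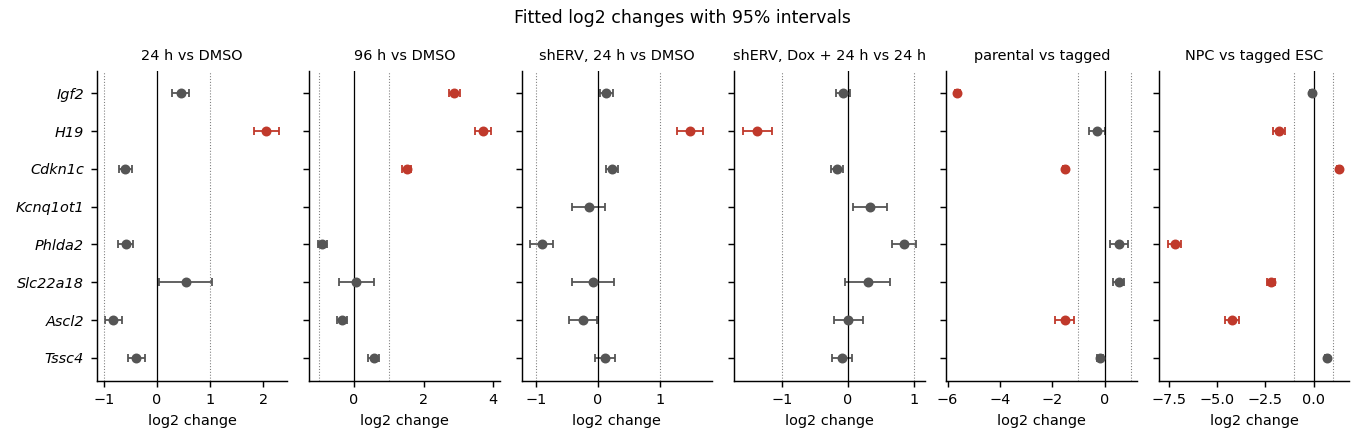
Fitted log2 changes of the 8 genes with 95% intervals in 6 comparisons (limma on log2(TPM + 0.5)). Red points were called (adjusted p below 0.05 and more than 2-fold, dotted lines), grey points were not, and a missing point was not tested. H19 is called in 5 of the 6 panels, to the right in 3 and to the left in 2, and the NPC panel has 5 called genes.

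Levels of Igf2 over all 10 groups of RNA-seq thus ran from about 2 TPM in parental cells, through 111 to 137 TPM in the tagged line in DMSO, at 2 h and 6 h and in NPCs, to 158 to 185 TPM at 24 h, 377 to 457 TPM in the 3 shERV groups and 854 to 962 TPM at 96 h. Neighbouring groups in that order overlapped from 2 h to NPCs, and the 3 shERV groups lay side by side without overlap. Between the total and the messenger RNA libraries this order also carries the library type. Levels of H19 ran from 1.31 TPM in NPCs through 5.32 to 9.53 TPM in 6 groups (parental, DMSO, 2 h, 6 h and shERV in DMSO or with Dox and dTAG-13), where the 2 h and parental libraries lay below all DMSO libraries, to 21.4 to 22.9 TPM with dTAG-13 in the shERV line, 29.1 to 33.6 TPM at 24 h and 92.4 to 108 TPM at 96 h.

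ChIP-seq peaks over the genes were compared in windows of 2 kb either side of each start and in the H19 control region, 9 windows in all. H3K9me3, a mark of silenced chromatin that TRIM28 helps to place, had a peak in 4, 4 and 5 windows in the DMSO libraries and in 0, 3 and 0 at 24 h. The difference of -3.33 windows had p = 0.1 in an exact two-sided permutation test, the smallest that 3 against 3 libraries allow. The libraries also differ in how much was called: 118318, 126470 and 104579 peaks in DMSO and 11474, 105690 and 147611 at 24 h. Of the starts of active genes, 6.75, 6.39 and 5.49% had an H3K9me3 peak in DMSO and 0.539, 3.24 and 2.64% at 24 h. Over the starts of all 54409 genes the shares were 9.46% or more in DMSO and 1.34, 8.55 and 10.1% at 24 h, so that the third 24 h library was within the DMSO range there. The third 24 h library, with the most peaks of all, had none in the 9 windows. The share at active gene starts was lower in every 24 h library, and whether the loss in the 9 windows goes beyond that was not tested.

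The H19 control region was covered over its full length in all 3 DMSO libraries, with peak enrichments (fold over the background that the peak caller estimates) of 5.31, 4.87 and 4.4. At 24 h it had no peak in the first library or the third and 3 short peaks in the second, over 35% of its length and with an enrichment of up to 2.51. This is the stretch with the hexamers and CTCF cores printed above. Around the H19 start the same peaks covered 46 to 50.1% of the window in DMSO and none of it at 24 h.

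At the Kcnq1ot1 start 63.1, 54.3 and 62.6% of the window was covered by H3K9me3 peaks in DMSO, with enrichments of 3.15, 2.25 and 3.01. At 24 h the second library had 1 peak over 2.77% of the window and the others had none. Within 2 kb of the Igf2 start, on the side towards Gm49394, small peaks covered 8.22, 14.5 and 16.3% in DMSO and nothing at 24 h. Cdkn1c had a weak peak in the third DMSO library (2.87) and in the second 24 h library (2.71), and Phlda2, Slc22a18, Ascl2 and Tssc4 had none in any library. H3K9me3 peaks thus lay at both control regions and not at the starts of these 4 genes.

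A further H3K9me3 interval lay over the start of Gm49394, again a place chosen after its values were seen. The peak at the start had an enrichment of 5.71, 5.81 and 5.19 in the DMSO libraries, against 4.4 to 5.31 at the H19 control region, with −log10 q of 11.1, 16.8 and 10.7. It spanned chr7:142669180-142670863 in the first library and reached to 142672135 and 142672138 in the others. None of the 24 h libraries had an H3K9me3 peak within 2 kb of that start. The second 24 h library of H3K27Ac had a peak 1814 to 2298 bases downstream of it, with an enrichment of 3.92, and no DMSO library had one there.

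**Figure D5:**
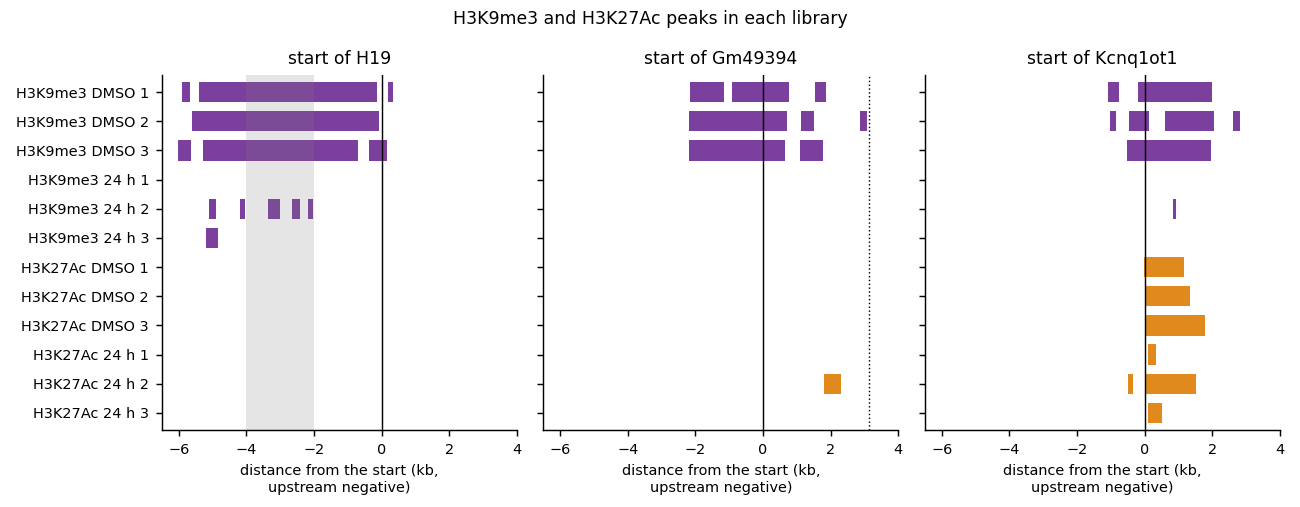
Peaks of H3K9me3 (purple) and H3K27Ac (orange) in each library, by distance in kb from the starts of H19, Gm49394 and Kcnq1ot1 (upstream negative). The grey band is the H19 control region and the dotted line the Igf2 start, 3126 bases downstream of that of Gm49394. H3K9me3 intervals at all 3 places in DMSO are absent or reduced to short pieces at 24 h.

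H3K27Ac, a mark of active promoters and enhancers, showed no clear difference between the groups in the number of windows with a peak. A peak lay in 3, 4 and 3 windows in DMSO and in 2, 5 and 2 at 24 h, a difference of -0.33 (exact two-sided permutation p = 1). Tssc4 and Kcnq1ot1 had H3K27Ac in all 6 libraries, at Tssc4 with enrichments of 12, 10.4 and 15.1 in DMSO and 7.48, 14 and 3.27 at 24 h, and at Kcnq1ot1 with 6.15, 7.34 and 9.55 and then 4.42, 8.37 and 3.01. At both genes the second 24 h library lay within the DMSO range and the other 24 h libraries below it. The same libraries had a peak at 50.4, 75.5 and 51.6% of active gene starts, against 73.5, 74 and 71.5% in DMSO, so the libraries other than the second were lower over the genome as well. Phlda2 had H3K27Ac in all 3 DMSO libraries and in the second 24 h library, and H19, its control region, Slc22a18 and Ascl2 had none in any.

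RNAPII had a peak at Cdkn1c, Kcnq1ot1, Phlda2 and Tssc4 in both DMSO libraries, and at 24 h at Kcnq1ot1 and Tssc4 in both. At Cdkn1c the DMSO enrichments were 12.3 and 10.7 and no peak was called at 24 h. MED23, a subunit of the Mediator complex that joins enhancers to RNAPII, had a peak in 6 of the 9 windows in both DMSO libraries (those of Igf2, Cdkn1c, Kcnq1ot1, Phlda2, Ascl2 and Tssc4) and in 1 and 0 at 24 h. Over all active gene starts the share with an RNAPII peak was 62 and 62.2% in DMSO and 35.9 and 33% at 24 h, and with a MED23 peak 80.8 and 80.9% and then 29.3 and 26.5%. With 2 libraries per group and fewer peaks over the whole genome, the loss at these genes cannot be told from the general one.

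The wider neighbourhood and related genes were read as lists. Of 23 neighbours on distal chromosome 7, 18 were tested in the time course, with 2 called higher and 1 lower at 24 h. At 96 h the counts were 11 higher with 3 lower, shares of all genes being those given above. The largest changes at 96 h were those of Trpm5 (3.42 ± 0.43, log2), which overlaps Tssc4 on the other strand, Osbpl5 (3.00 ± 0.10), a lipid transfer protein, and Lsp1 (2.81 ± 0.10). In the shERV line limma called 0 of 15 in either comparison, with 8 and 9 at an unadjusted p below 0.05, where 59.2% and 53.5% of all genes had one. In parental cells 5 of 14 were lower and 0 higher, led by Tnnt3, Igf2os and Tspan32, beside 9.15% and 2.25% of all genes. In NPCs 2 were higher and 3 lower, beside 25.9% and 20.7%.

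Of 12 genes that maintain imprints, 1 was called lower at 24 h, the DNA methyltransferase gene Dnmt3b (-1.04 ± 0.04), and 7 were lower and 0 higher at 96 h. Over all genes 2.01% were called lower at 24 h, and at 96 h 12.4% lower and 20.3% higher. Zfp57, which encodes the reader of the hexamer, was at 413, 410 and 508 TPM in DMSO, 295 to 357 TPM at 24 h and 74.9 to 83 TPM at 96 h, and fell by 2.47 on the log2 scale at 96 h (SE 0.08; limma adjusted p = 1.3e-12). Dnmt3b (-2.34 ± 0.04) and Dnmt3a (-1.74 ± 0.25) fell as well. In the shERV line limma called 0 of 12, with 9 and 8 at an unadjusted p below 0.05, where 59.2% and 53.5% of all genes had one.

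Of the 16 genes of the IGF pathway 13 were tested in the time course, with 3 higher and 0 lower at 24 h, beside 10.1% and 2.01% of all genes. At 96 h 8 were higher and none lower, beside 20.3% and 12.4%. Igfbp4, Igfbp5 and Igfbp6, which encode proteins that bind insulin-like growth factors, rose most at 96 h, by 5.01 ± 0.05, 4.39 ± 0.11 and 3.55 ± 0.15. In TT-SLAM-seq 2 of 10 were higher at 24 h, beside 2.49% of all genes. They were Irs2 (1.26 ± 0.12) and Igf1r (1.07 ± 0.06), an adaptor and a receptor of the pathway. Of 40 other imprinted genes 35 were tested in the time course, with 5 higher and 2 lower at 24 h, beside 10.1% and 2.01% of all genes. At 96 h 16 were higher and 3 lower, beside 20.3% and 12.4%. Mest, a paternally expressed gene, was at 0.307 to 0.534 TPM in DMSO, 5.01 to 7.36 TPM at 24 h and 59.3 to 67 TPM at 96 h, at 17.5 to 19 TPM with dTAG-13 and 0.524 to 0.613 TPM with Dox and dTAG-13 in the shERV line, and at 63.1 to 65.4 TPM in parental cells. Its order over the shERV groups was that of H19 and Gm49394, and its parental level was opposite to that of Igf2. Mest is 1 gene picked after its values were seen. In parental cells 2 of 33 tested genes of its list were higher and 12 lower, beside 2.25% and 9.15% of all genes. In the shERV line 3 of 35 were higher and 0 lower with dTAG-13, beside 2.38% and 1.44%. With Dox and dTAG-13, against dTAG-13 alone, 0 were higher and 3 lower, beside 1.49% and 1.96%.

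Genes whose log2 levels followed a member most closely over the 15 time course libraries were taken from 16297 genes by Pearson's r, as a description. For Igf2 they were Map4k3, Cd24a and Gm26526 (0.998 each) and for H19 Sh3rf1 (0.997), Arfgap3 and Tcn2 (0.996 each). For Cdkn1c they were Usp4 (0.996), Tmsb4x and Atxn7l3b. Such values may be set largely by the 96 h libraries, which was not tested, and the 5 groups share their libraries. Slc22a18 had the lowest value for its nearest gene, 0.888 (Gm5514).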

How the data were processed

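Messenger or total RNA (RNA-seq), newly made RNA (TT-SLAM-seq) and ChIP-seq peaks of mouse cells were used. For RNA-seq the authors trimmed reads with cutadapt 2.4, aligned them to mm10 with STAR 2.7.5a and deposited TPM, FPKM and coverage signal per gene from StringTie 2.0.6, of which TPM was analysed and the coverage signal gave relative depth. Repeated gene IDs were summed. For TT-SLAM-seq the authors removed ribosomal reads, mapped with SLAM-DUNK, counted stranded reads with htseq-count for every gene they overlap, and deposited FPKM. ChIP-seq peaks were called by the authors in each library with MACS2, and the deposited files give fold enrichment (a ratio over background) and −log10 q. Versions are those of the submitters' processing notes.

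Levels were tested as log2(value + 0.5) with limma 3.58.1 in R 4.3.3 (lmFit and eBayes with trend, two-sided, Benjamini-Hochberg over all genes tested), for genes with at least 0.5 FPKM or 1 TPM in 3 libraries of a fit. The time course, the shERV line and the pair of line comparisons were fitted separately, and TT-SLAM-seq on its own. Genes were called where the adjusted p was under 0.05 and the fitted change exceeded 2-fold. Intervals are 95% intervals of the limma fit. Peaks were counted as present when they overlapped a window by 1 base, and windows per library were compared by an exact permutation test. Scripts were tested on simulated data, where at least 79 of 100 genes changed 2.8-fold and 83 of 100 changed 4-fold were recovered in the fit with the fewest.

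The 8 genes, the gene lists and the tests were chosen with earlier results of these data known. Named from each list were up to 3 called genes with the largest change per comparison, and by likeness the 3 genes with the highest r. Gm49394, Igf2os and Mest's values by group were added after the data were seen. Replicate numbers in the labels did not pair libraries: the correlation of deviations between libraries of the same number had a median of 0.02 in TT-SLAM-seq and 0.03, 0.00 and 0.01 in the RNA-seq fits. Alternatives were other pseudocounts and filters, centred libraries, a replicate block, leaving out each library, stricter peaks and the sum of Igf2 and Gm49394. Hi-C and single-cell data were not analysed here.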

Additional observations from a re-analysis of the deposited data

Results flagged for a closer look

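In 6 of the 8 genes the effect of 24 h of dTAG-13 in the shERV line differed from that in the time course, at an adjusted p below 0.05 of the interaction in limma and with differences under 2-fold. Such an adjusted p was also reached by 51.4% of all 17653 genes tested. The log2 change in the shERV line minus that in the time course was -0.58 ± 0.11 (SE) for H19 (limma adjusted p = 7.3e-04), which rose in both. It was -0.31 ± 0.08 for Igf2 (limma adjusted p = 0.00624), and -0.20 ± 0.08 (limma adjusted p = 0.0536) with Igf2 and Gm49394 summed. For Cdkn1c it was 0.82 ± 0.08 (limma adjusted p = 1.1e-05), with changes of 0.22 in the shERV line and -0.60 in the time course. For Ascl2 and Tssc4 it was 0.58 ± 0.13 and 0.51 ± 0.10 (limma adjusted p = 0.00306 and 0.00141), and for Slc22a18 -0.62 ± 0.22 (limma adjusted p = 0.0362). The library type and the line differ together and cannot be told apart. With 3 libraries or fewer in each group, no single library was examined as an outlier.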

How the results depend on the processing

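Of 204 recomputed counts of called genes and of windows, 188 were taken as unchanged. Counts of called members had to stay within 1.5 times, and differences in windows had to move by less than the SD between libraries. Of 1243 recomputed changes of single genes, 1208 kept direction and call. The number of called members at 24 h in TT-SLAM-seq, 1 as reported, was 2 with a pseudocount of 0.1 (Ascl2, -1.35, added), 0 with a pseudocount of 1, 0 with a filter at a mean of 5 FPKM (no member tested), 0 with centred libraries and 0 to 1 when single libraries were left out. Centring also gave 2 called members in RNA-seq at 24 h (Ascl2, -1.11) and 2 with dTAG-13 in the shERV line (Phlda2, -1.07), and a filter at a mean of 5 TPM gave 3 in NPCs (5 tested). The H3K9me3 difference was -2 windows with the 10000 strongest peaks and with a −log10 q of at least 5, and the H3K27Ac difference ran from -1.33 to 0.17 without single libraries. Changes of uncalled genes turned sign with centred libraries for Igf2 in TT-SLAM-seq at 6 h (-0.02), Cdkn1c (-0.06), Kcnq1ot1 (-0.03) and Phlda2 (-0.08) there at 24 h, Tssc4 at 6 h (0.00), Slc22a18 at 96 h (-0.21), Igf2 (-0.03) and Tssc4 (-0.05) in the shERV line and Tssc4 in parental cells (0.02), and with the sum for Igf2 at 6 h (0.06). Without single libraries they ran across 0 for Ascl2 at 2 h (-0.06 to 0.02; -0.06 to 0.19 in TT-SLAM-seq) and with Dox (-0.04 to 0.09), Cdkn1c (-0.14 to 0.02) and Igf2 (-0.02 to 0.09) in TT-SLAM-seq at 2 h, H19 (-0.18 to 0.04) and Igf2 (-0.08 to 0.07) at 6 h, Igf2 in TT-SLAM-seq at 6 h (-0.02 to 0.11) and Slc22a18 at 96 h (-0.01 to 0.12). The causes were not tested. With the replicate block the number of called members was the same in all 13 comparisons (1 at 24 h in TT-SLAM-seq, 1 at 24 h and 3 at 96 h in RNA-seq, 5 in NPCs), and 462 genes were called at 24 h in TT-SLAM-seq against 454. Numbers of called genes over all genes ranged over the alternatives from 60 to 1102 at 24 h in TT-SLAM-seq and, in RNA-seq, from 985 to 2821 at 24 h (2179 as reported) and from 3552 to 6527 at 96 h (5862).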
